A study of Mus musculus with 19 samples.

Results

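Extrachromosomal circular DNA (eccDNA) from the genes Dpp6 and Dpp10 was examined in mouse cervical spinal cord. These members were taken by name from a table of 8336 genes, and their values in all 19 libraries are given here. The ALS group held 9 male B6.Cg-Tg(SOD1*G93A)1Gur/J mice with motor symptoms at a severity score of 1 or 2. They constitutively overexpress mutant human SOD1 (hSOD1G93A), and animals without symptoms in the age window of 18 to 21 weeks were not included. The control group held 10 C57BL/6J mice of the same sex and age. Each library came from 1 animal, and the deposited text describes no further treatment in either group. For each library, 400 ng of DNA were digested with an exonuclease for 7 days, which removes linear DNA, and the remaining circles were copied by rolling circle amplification (RCA) for 48 h. The molecule measured is genomic DNA, so that the tissue could not be checked against expressed marker genes. In a piece of whole cord, circles from few cells and few circles from many cells cannot be told apart.

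Dpp6 and Dpp10 belong by sequence to the dipeptidyl peptidase family, but have lost the catalytic serine and cleave no peptides. They are single-pass membrane proteins with a large extracellular domain that bind the Kv4 potassium channels, of which the Kcnd genes encode the pore. Together with the cytoplasmic KChIP subunits, encoded by Kcnip genes, they bring the channel to the membrane and set the speed of the A-type current, which delays firing and limits the back-spread of action potentials in dendrites. Human DPP6 is known as a gene with genetic associations with ALS. What is counted here is circular DNA cut from these loci, not their transcripts or proteins.

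Both genes are very long, and their extents enter every value. Dpp6 (ENSMUSG00000061576) lies on the plus strand at chr5:26817203-27727505 in mm10 and spans 910 kb in GENCODE release M21. Dpp10 (ENSMUSG00000036815) lies on the minus strand at chr1:123321471-124045559 and spans 724 kb in the same release. A produced per gene eccDNA value (PpGC) is the sum of split reads, which cross the junction of a circle, over all eccDNAs that touch the gene, scaled up by how many times shorter the gene is than the longest one in the data. With the M21 length, the 9 Dpp6 values above 0 came back as whole split reads within a tolerance of 0.02, but only 1 of the 9 Dpp10 values did. All 9 became whole at a length of 1525 kb, 2.11 times the M21 length. RefSeq on GRCm38.p6, the same assembly, places 1 Dpp10 transcript start 800 kb further upstream. The span from that start to the M21 end is 1524345 bp, which is 224 bp short of the length in the values. The deposited Dpp10 signal is therefore given here per 1525 kb, and the release of the annotation is not given in the sources used here.

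**Figure D1:**
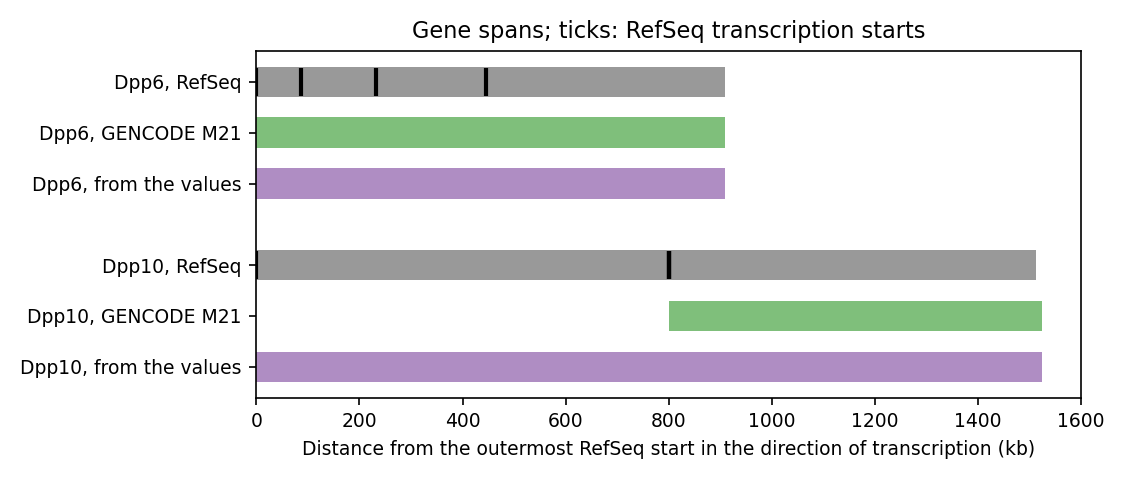
Extent of Dpp6 and Dpp10 in kb from the outermost RefSeq start, in the direction of transcription, for RefSeq, GENCODE M21 and the length that the values give (for Dpp6, the M21 length). Vertical ticks mark RefSeq transcript starts, and the bar for the length from the values of Dpp10, whose position is not known, is drawn from the outermost start. The 3 Dpp6 bars nearly coincide, while the M21 bar of Dpp10 covers 724 kb of the 1525 kb.

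The start sites of these extents are shown because the RefSeq and M21 models of Dpp10 differ in their outermost start. The windows are the 250 bases before each start on the transcribed strand, from RefSeq on GRCm38.p6, in lower case with CpG dinucleotides in capitals. They lie at chr5:26817107-26817356 (plus strand), chr1:124845816-124846065 (minus) and chr1:124045560-124045809 (minus), in this order.
Dpp6, outermost start: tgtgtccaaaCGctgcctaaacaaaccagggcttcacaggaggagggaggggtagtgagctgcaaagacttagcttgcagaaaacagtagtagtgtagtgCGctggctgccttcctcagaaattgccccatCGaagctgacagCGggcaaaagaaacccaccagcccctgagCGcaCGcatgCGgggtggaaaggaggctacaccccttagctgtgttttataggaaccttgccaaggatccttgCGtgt
Dpp10, distal start: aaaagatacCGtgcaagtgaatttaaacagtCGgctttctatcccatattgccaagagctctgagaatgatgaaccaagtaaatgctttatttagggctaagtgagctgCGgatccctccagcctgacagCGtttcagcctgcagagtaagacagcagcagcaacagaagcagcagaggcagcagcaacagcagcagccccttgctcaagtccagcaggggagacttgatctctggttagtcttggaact
Dpp10, proximal start: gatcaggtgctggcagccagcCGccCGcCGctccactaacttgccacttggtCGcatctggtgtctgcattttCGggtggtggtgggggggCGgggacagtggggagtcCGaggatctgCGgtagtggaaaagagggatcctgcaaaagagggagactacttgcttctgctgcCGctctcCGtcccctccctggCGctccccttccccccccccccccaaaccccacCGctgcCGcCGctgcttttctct
The proximal Dpp10 window held 14 CpGs and a GC content of 65.2%, and 29.4% of the 32851 RefSeq start windows of this length held as many or more. The distal window held 4 CpGs with 49.2% GC, a count reached by 62.2% of windows. The outermost Dpp6 window held 8 CpGs with 54.4% GC, which 43.0% of windows reached. The median over all windows was 6 CpGs. Of the 4 RefSeq starts of Dpp6, the other three lie 87.4, 232 and 445 kb downstream of the first. The table gives no positions of circles within a gene, so that the eccDNA signal could not be assigned to these starts.

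EccDNA from Dpp6 was found in 7 of 9 ALS libraries and 2 of 10 controls. In ALS 1 to ALS 9 the log2(PpGC + 1) values of Dpp6 were 4.66, 12.30, 5.49, 0, 3.96, 0, 5.13, 5.77 and 5.49. In control 1 and control 2 they were 4.92 and 3.43, and the remaining 8 controls were at 0. ALS 2 stood far above every other library, the 6 other positive ALS libraries lay between 3.96 and 5.77, and the groups overlapped. In split reads, ALS 2 held 1036, while the other positive ALS libraries held 3 to 11 and the positive controls 6 and 2. ALS 2 thus contributed 95.9% of the 1080 Dpp6 split reads of the ALS group. Since eccDNAs with fewer than 2 split reads were removed, the lowest value that Dpp6 could take above 0 was 3.43, the value of control 2.

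The mean log2 PpGC of Dpp6 was 4.76 ± 3.62 (SD, n = 9) in ALS and 0.83 ± 1.79 (SD, n = 10) in controls. The difference of 3.92 (SE 1.29) passed the threshold of 0.01 of the methods when the group labels were permuted in all 92378 ways (two-sided exact test, p = 0.00586). After Benjamini-Hochberg adjustment of the exact permutation p over all genes it was 0.581, and limma's moderated test gave an adjusted p of 0.332. Without ALS 2 the difference was 2.98 (exact permutation p = 0.0114) and no longer passed. With the libraries set to equal totals it was 3.00 (exact permutation p = 0.0328), which did not pass. The presence of Dpp6 eccDNA did not pass that threshold either (two-sided Fisher's exact test, p = 0.0230). At least 10 Dpp6 split reads were found in 2 ALS libraries and 0 of 10 controls, a difference of 22.2 percentage points in place of 57.8 (exact p = 0.211). With a pseudocount of 100 in place of 1 the difference of means was 0.87, under the minimum of 1 that the methods set for a call.

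EccDNA from Dpp10 was found in 8 of 9 ALS libraries and 1 of 10 controls. In ALS 1 to ALS 9 the log2(PpGC + 1) values of Dpp10 were 7.96, 2.77, 10.01, 4.76, 6.09, 0, 10.86, 5.48 and 2.77. Control 1 had a value of 4.21, and the other 9 controls were at 0. The ALS values spread over the whole range from the smallest that 2 split reads can give, 2.77 in ALS 2 and ALS 9, to the value of ALS 7. The single positive control lay above these lowest ALS libraries, so that the groups overlapped. The split reads were 85, 2, 354, 9, 23, 0, 638, 15 and 2 in ALS 1 to ALS 9 and 6 in control 1. ALS 7 held 56.6% of the 1128 ALS split reads, and 490 remained without it.

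The mean log2 PpGC of Dpp10 was 5.63 ± 3.55 (SD, n = 9) in ALS and 0.42 ± 1.33 (SD, n = 10) in controls. The difference was 5.21 (SE 1.20), with an exact permutation p of 4.44e-04 (two-sided). Adjusted over all genes by Benjamini-Hochberg, the exact permutation p was 0.284, and limma gave an adjusted p of 0.0626. The presence of Dpp10 eccDNA also passed the threshold of 0.01 (two-sided Fisher's exact test, p = 0.00109). Of the ALS libraries, 5 held at least 10 Dpp10 split reads, and no control did (0 of 10). At this minimum, the exact test of presence gave p = 0.0108.

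**Figure D2:**
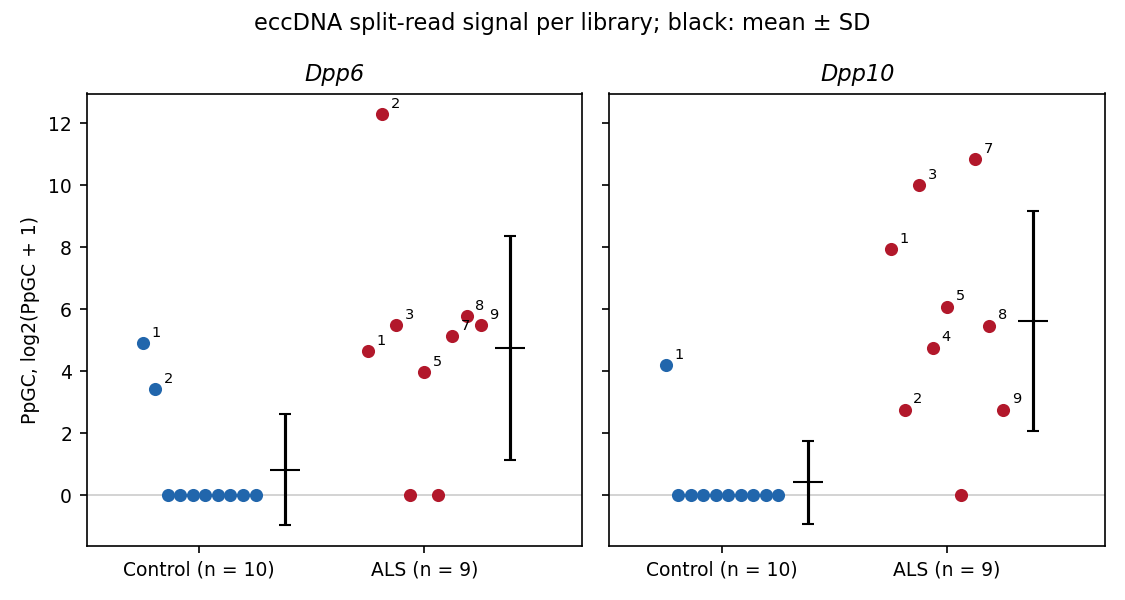
Log2(PpGC + 1) of Dpp6 and Dpp10 in each control (blue) and ALS (red) library, with replicate numbers beside values above 0 and the mean ± SD in black. ALS 2 stands alone for Dpp6 at 12.30, whereas the Dpp10 values are graded from 2.77 to 10.86 over 8 ALS libraries, and nearly all controls are at 0.

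The methods call a gene when its group means lie more than 1 apart on the log2 scale and p is under 0.01 in an equal-variance comparison of means. Both members were called higher in ALS by this rule. Among all 8336 genes the rule called 111, or 1.33%, and 0 genes were called lower. The methods do not name the sides of the test, which was two-sided here. With a one-sided p, an alternative chosen after seeing the data, 189 genes (2.27%) were called, again with both members among them. Among the 123 genes of at least 700 kb, however, the rule with the two-sided p called 41, or 33.3%. The median difference in these long genes was 3.49. By the size of the difference Dpp10 ranked 16 and Dpp6 ranked 46 of the 123, so that both lay above the median of their length class. The share of long genes with an eccDNA in a library ran from 44.7% (ALS 6) to 84.6% (ALS 3) in ALS and from 5.69% (control 5) to 51.2% (control 1) in controls.

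**Figure D3:**
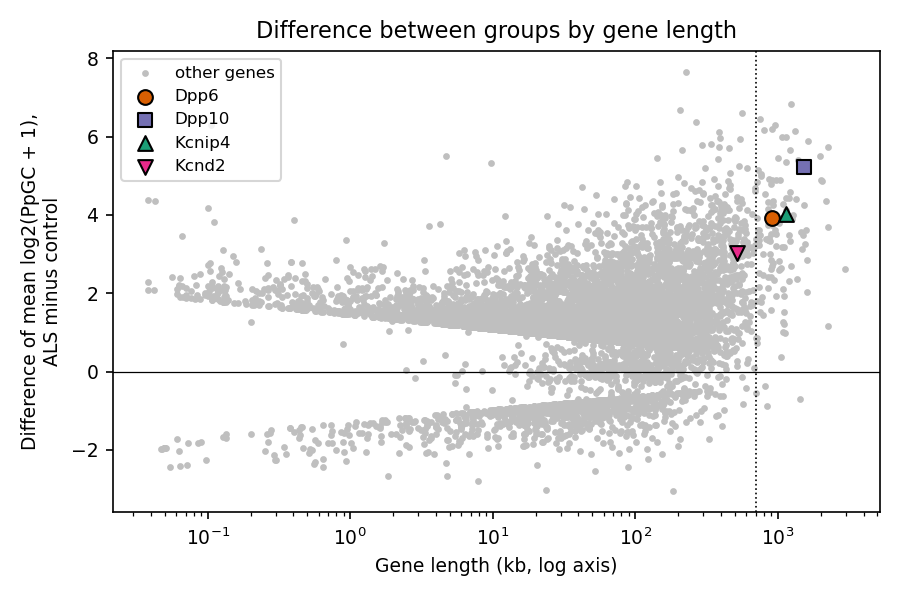
Difference of mean log2(PpGC + 1) between ALS and controls against gene length in kb (log axis) for the genes with a known length, with 4 Kv4 complex genes marked and a dotted line at 700 kb. Dpp6 at 3.92 and Dpp10 at 5.21 lie among the other genes of their length rather than apart from them.

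The load of a library, taken as its number of genes with a PpGC above 0, moved with the presence of both members. It ran from 694 to 2204 in ALS and from 57 to 723 in controls. All 9 libraries with Dpp10 eccDNA had at least 723 genes, and all 10 libraries without it had at most 694. Control 1, the only control with Dpp10, was also the control with the highest load, and ALS 6, the only ALS library without it, had the lowest load of its group. The order for Dpp6 was similar but not complete. Its positive controls were those of the highest loads, with 723 and 462 genes, and the next control, with 330, had none. The ALS libraries without Dpp6, ALS 4 and ALS 6, had 923 and 694 genes, and those with it had at least 1105.

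With the load as a covariate, the group difference was -0.58 for Dpp6 (permutation p = 0.778, 100000 resamples of residuals) and 0.05 for Dpp10 (permutation p = 0.976). Since only control 1 had a load within the range of the ALS libraries, the group and the load can hardly be told apart in these samples. The sequencing depth of each single library is not known, but the split reads on all genes ranged from 74018 to 391396 in ALS and from 3583 to 123388 in controls. Per 100000 of these reads, the median was 3.46 for Dpp6 and 6.36 for Dpp10 in ALS, and 0 for both in controls. The mean for Dpp10 was 95.4 in ALS and 0.611 in controls (exact permutation p = 0.00142), and without ALS 7 it was 39.4 (p = 0.00299, exact permutation). The mean for Dpp6 was 158 in ALS and 1.74 in controls (exact permutation p = 0.117). Without ALS 2 the Dpp6 mean fell to 2.88 (exact permutation p = 0.503). On this scale the positive controls held 6.11 and 11.3 Dpp6 reads, and the positive ALS libraries other than ALS 2 held 0.830 to 5.96.

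**Figure D4:**
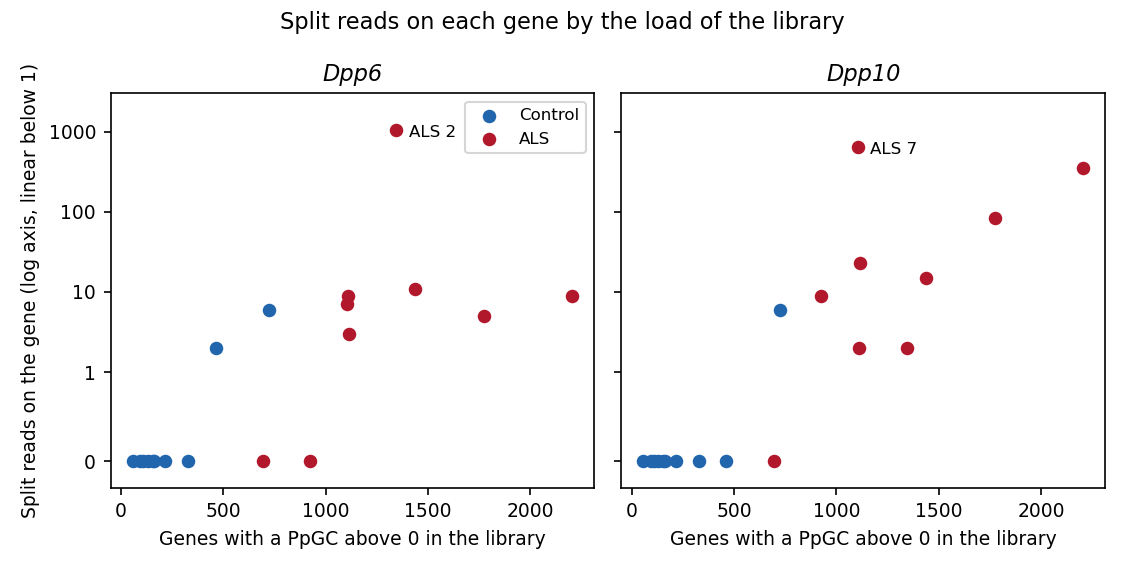
Split reads on Dpp6 and Dpp10 (log axis, linear below 1) against the number of genes with a PpGC above 0 in the same library, for ALS (red) and control (blue) libraries. Libraries with few genes are at 0 for both members. ALS 2 with 1036 Dpp6 reads and ALS 7 with 638 Dpp10 reads stand above libraries of a like load.

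The share of genes on chromosome 1, where Dpp10 lies, differed among the ALS libraries. It was 1.60% in ALS 2, 13.8% in ALS 4 and 10.3% in ALS 7, against 5.33% to 6.65% in the others. ALS 7 had the highest Dpp10 value, ALS 2 was among the lowest, and ALS 4, with 9 split reads, was intermediate. The share of genes on chromosome 5, which holds Dpp6, ran only from 5.94% to 7.62% in ALS. With these 3 libraries left out, an alternative chosen after seeing the data, the difference was 4.96 for Dpp10 (exact permutation p = 0.00262) and 3.39 for Dpp6 (exact permutation p = 0.00425).

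The members were compared with each other in the same libraries. EccDNA from both was found in 8 libraries, 7 ALS libraries and control 1. Control 2 had Dpp6 only, ALS 4 had Dpp10 only, and 9 libraries had neither. On the log2 PpGC scale, Dpp10 was higher than Dpp6 in 5 ALS libraries and lower in 3, with ALS 6 at 0 for both. In split reads, which are not scaled by length, Dpp10 had more in 6 and Dpp6 in 2. The libraries with the most of one gene were not those with the most of the other. ALS 2, highest for Dpp6, had 2 Dpp10 split reads, and ALS 7, highest for Dpp10, had 7 Dpp6 split reads. Across the 19 libraries, which share their load between the genes, Pearson's r of the log2 values was 0.56, and within the 9 ALS libraries it was 0.11. The difference between the groups was 1.29 (SE 1.63) smaller for Dpp6 than for Dpp10, which did not pass the two-sided exact permutation test (p = 0.440). Without ALS 2 this contrast of Dpp6 minus Dpp10 was -2.59 (exact permutation p = 0.0221), and without ALS 7 it was -0.68 (exact permutation p = 0.690).

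The pore and KChIP genes, whose products assemble with Dpp6 and Dpp10, were examined as a group. Of the 7 Kcnd and Kcnip genes, 6 could be analysed and 0 were called, beside 1.33% of all genes (0 also with a one-sided p). The differences were positive for 5 of them and negative for 1, with a median of 1.12, close to the median of 1.19 over all genes. Their lengths have a median of 293 kb, against 49.3 kb for all genes, and 3 of the 6 had an eccDNA in a single library.

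Among the pore genes, Kcnd2 (Kv4.2, the main dendritic pore subunit; 514 kb) was found in 5 ALS libraries and 2 controls. Its log2 values were 8.16 in ALS 1, 4.75 in ALS 2, 5.46 in ALS 3, 4.75 in ALS 8 and 15.34 in ALS 9, and 6.13 and 6.30 in control 1 and control 8. ALS 9 stood apart with 4823 split reads, while the other positive libraries held 3 to 33. The difference of 3.03 was within the spread of the samples (exact permutation p = 0.112). Kcnd3 (Kv4.3; 222 kb) had 3 split reads in ALS 3 and none elsewhere.

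Among the KChIP genes, Kcnip4 (1135 kb), which encodes the subunit KChIP4, was found in 6 ALS libraries and 1 control. Its log2 values were 8.16 in ALS 2, 11.05 in ALS 3, 7.65 in ALS 4, 4.06 in ALS 5, 8.16 in ALS 7 and 5.69 in ALS 8, and 9.60 in control 8. The difference of 4.01 did not pass the threshold (exact permutation p = 0.0281). The control value lay above all but 1 of the ALS values, and control 8 held neither Dpp6 nor Dpp10. Kcnip1 was found in ALS 3 and ALS 4 with 10 and 2 split reads, and Kcnip2 with 2 in ALS 5. Kcnip3, also known as DREAM or calsenilin, had 5 split reads in control 3 and none in ALS. Taking the members and the 6 partners together, ALS 3 held 6 of the 8 genes, ALS 6 held 0, control 1 held 3, and 6 controls held 0.

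**Figure D5:**
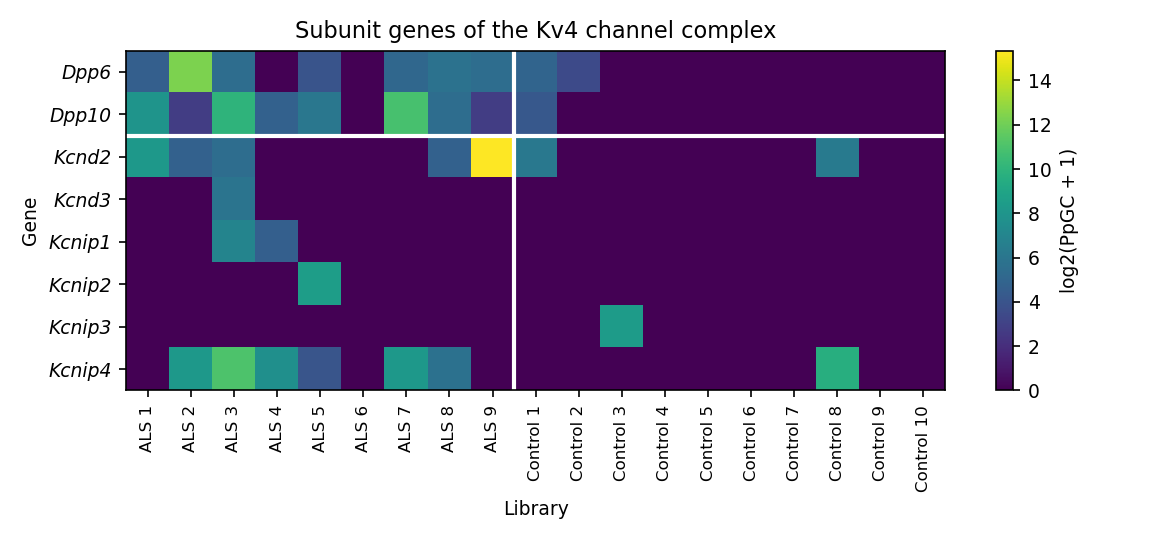
Log2(PpGC + 1) of Dpp6, Dpp10 and 6 further subunit genes of the Kv4 complex in 9 ALS and 10 control libraries, with dark cells at 0. The Dpp6, Dpp10, Kcnd2 and Kcnip4 rows are filled in most or several ALS libraries, and the Kcnd3, Kcnip2 and Kcnip3 rows have 1 filled cell each.

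Of 9 genes for catalytically active dipeptidyl peptidases and related prolyl peptidases, 2 were analysed here, and 0 were called, beside 1.33% of all genes. Fap, a membrane peptidase of activated fibroblasts (73.1 kb), had 4 split reads in ALS 3. Prepl, a prolyl endopeptidase-like protein (26.8 kb), had 52 in ALS 1. Of 13 genes for other auxiliary potassium channel subunits, 4 were analysed and 0 were called, also beside 1.33% of all genes. Their median difference was 2.28, against 1.19 over all genes, and their median length was 178 kb, against 49.3 kb. The following 2 of them, found in more than 1 library, were named after their values were seen. Kcnmb2, a beta subunit of the calcium-activated BK channel (298 kb), was found in 5 ALS libraries and no control (0 of 10). Its split reads were 379 in ALS 1, 282 in ALS 3, 6 in ALS 7, and 2 in both ALS 4 and ALS 6. Its difference of 4.54 did not pass the threshold (exact permutation p = 0.0108), but it was called with the one-sided p, beside 2.27% of all genes. Kcnab1, a beta subunit of Kv1 channels, was found in 5 ALS libraries and 3 controls. Its log2 values were 4.44 in ALS 1, 12.48 in ALS 2, 6.20 in ALS 3, 5.40 in ALS 6 and 18.06 in ALS 8, and 4.44, 5.98 and 4.44 in control 1, control 2 and control 10. ALS 8, ALS 2 and ALS 3 lay above every control, and the groups overlapped. The M21 length of Kcnab1 did not give whole split reads, so that its length in the values is not known and its split reads are not given. The Kcnab1 difference was 3.69 (exact permutation p = 0.117).

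The table covers genes only, so that eccDNA from the sequence between them was not measured here. GENCODE M21 annotates 7 further genes that overlap Dpp6 and 15 that overlap the extended Dpp10, and 0 of these were among the genes analysed. The nearest analysed gene beyond the Dpp6 end, Paxip1, which encodes a DNA damage response protein, lies 12.6 kb away and had 7 split reads in ALS 2, the library with 1036 on Dpp6. On the other side, Gm10471 lies 728 kb away and had 4 split reads in ALS 1. Next to Dpp10, Actr3, a subunit gene of the actin-nucleating Arp2/3 complex, lies 547 kb away and was found in ALS 3 and ALS 4, with at most 56 split reads. Over the shorter length of Actr3 this gave a log2 value of 12.50, above the highest value of either member. Ccdc93, 1815 kb away on the other side, was found in ALS 3 and ALS 8, with at most 7.

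The genes whose values followed the members most closely over the 19 libraries were named by Pearson's r among 1275 other genes with an eccDNA in at least 3 libraries. All these values share the load of the libraries, and r is given as a description. For Dpp6 they were Dlg2 (r = 0.87), Ttc28 (0.83), Ptprd (0.83), Slc35f4 (0.81) and Malrd1 (0.81). Each of these except Slc35f4 had its own highest value in ALS 2, where Dlg2 reached 13.49. Dlg2, a synaptic scaffold gene of 1973 kb, was present in all 9 libraries with Dpp6 and in 13 in all. For Dpp10 they were Pcdh7 (r = 0.89), Adarb2 (0.86), Grm8 (0.86), Sox6 (0.86) and Rundc3b (0.86). All 5 were at 0 in ALS 2, where Dpp10 had 2 split reads. Pcdh7, a protocadherin gene of 415 kb, was found in 6 libraries, all of them among the 9 with Dpp10.

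The sequence make-up of the members was set against that of other long genes. Over the M21 extents of the 123 genes of at least 700 kb, the GC content ran from 35.2% to 48.9% with a median of 39.1%. Dpp6 had 43.9%, the 14th highest, and Dpp10 had 37.8%. Soft-masked repeats made up 25.2% of Dpp6 and 33.3% of Dpp10, with a median of 28.6% in the class. Exons covered 1.36% of Dpp6 and 2.18% of Dpp10, against a median of 0.968%. The longest introns were 210 kb in Dpp6 and 168 kb in Dpp10, both shorter than the median of 266 kb. Over the longer RefSeq extent, Dpp10 had 38.2% GC and 33.0% repeats. The exon share and longest intron of Dpp10 were measured over the M21 extent only, so that they are not known for the length in the values. These are properties of the gene models, and whether they bear on the eccDNA signal was not tested.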

How the data were processed

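EccDNA was sequenced from 9 ALS and 10 control libraries, grouped by their labels. The authors mapped reads to mm10 with Circle_Finder, merged eccDNAs within 10 bp, removed those with fewer than 2 split reads, intersected them with GENCODE genes using bedtools, scaled the split reads by gene length and deposited log2(PpGC + 1), with no scaling between libraries. Of the values, 91.1% were 0. The depth of each single library is not known, and the average that the methods state was not used. RCA copies circles unequally, and the 48 h of amplification limit how far split reads reflect numbers of circles. The values were used as deposited (0 columns of other samples). Undoing the length scaling with GENCODE M21, where 8088 genes matched by name, gave whole split reads for 98.9% of values above 0, within 0.02.

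The members and gene lists were chosen with earlier results of these data known. Named genes were the members, the Kv4 complex, dipeptidyl peptidase and called list genes, the nearest genes of the table, and the 5 genes most correlated with each member. Kcnmb2 and Kcnab1 were added after their values were seen. Members were tested by exact permutation and Fisher's exact test, and all genes by Student's test and by limma 3.58.1 (R 4.3.3). Python 3.11.15, NumPy 2.4.6, pandas 2.3.3 and SciPy 1.17.1 were used. The gene-wise tests were tested on simulated data. Alternatives were limma, adjustment, the replicate block, load as covariate, equal totals, no length scaling, a pseudocount of 100, at least 10 split reads or 3 samples, and leaving out each sample. Leaving out 3 libraries, a one-sided p and the M21 length of Dpp10 were chosen after seeing the data.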

Additional observations from a re-analysis of the deposited data

Results flagged for a closer look

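Of 24 sets of values of 1 group checked for a single sample far from the others, 10 had one. A gene that is above 0 in a single library of a group always does, which holds for 6 of the 10. The rate of about 1 in 20 that chance gives holds for normally distributed values, so that it is no measure for these 6. Whether the other sets are so distributed was not tested. For Dpp6, ALS 2 lay far above the other ALS libraries, at 12.30 on the log2 scale and at 1400 split reads per 100000. For Dpp10, ALS 7 lay apart in ALS at 543 split reads per 100000, though not on the log2 scale. Control 1 was the only control with Dpp10, at 4.21 on the log2 scale and 6.11 split reads per 100000. The highest share of genes on chromosome 1 among controls was 16.4%, in control 10, which had 130 genes with an eccDNA and neither member. Among the partners, Kcnd3 in ALS 3 (5.93), Kcnip2 in ALS 5 (8.52), Kcnip3 in control 3 (8.41) and Kcnip4 in control 8 (9.60) were above 0 in no other library of their group. What set these libraries apart was not tested.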

How the results depend on the processing

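With the load as covariate the Dpp6 difference turned to -0.58 (permutation p = 0.778), the Dpp10 difference shrank to 0.051 (permutation p = 0.976) and 34 genes were called. The adjusted p for Dpp6 (difference 3.92) was 0.332 with limma and 0.581 with the exact permutation test, and for Dpp10 (difference 5.21) 0.0626 and 0.284. With the replicate block over 9 pairs, the differences were 3.83 for Dpp6 (exact p = 0.0312) and 5.17 for Dpp10 (exact p = 0.00781), and the presence of Dpp10 differed by 77.8 percentage points (exact McNemar test, p = 0.0156). Same-numbered samples did not deviate together over all genes (r from -0.02 to 0.02, 0 of 9 pairs over 0.1). Since most values are 0, this cannot decide whether the numbers mark pairs. Equal totals gave 3.00 for Dpp6 (exact permutation p = 0.0328). At 10 or more split reads the presence of Dpp10 differed by 55.6 percentage points (exact p = 0.0108).

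Leaving out each sample gave differences of 2.98 to 4.52 for Dpp6 and 4.56 to 5.92 for Dpp10. Without ALS 2 the exact permutation p for Dpp6 (0.0114) no longer passed the threshold of 0.01. For Dpp10 the exact permutation p passed in all 19 fits. Whether the equal-variance rule of the methods still called the members in these fits was not examined. The contrast ranged from -2.59 to -0.68, and the presence from 55.0 to 67.5 percentage points for Dpp6 and from 77.5 to 90.0 for Dpp10. The genes called numbered 85 to 133 then, and 111 in the main test, 68 with exact permutation p, 6 after Benjamini-Hochberg adjustment, 9 with a pseudocount of 100, 71 without length scaling, 189 with a one-sided p and 166 with limma. With the M21 length, the Dpp10 difference was 6.03 and the contrast -2.11. The cause of these shifts was not tested. A pseudocount of 100 gave 0.87 for Dpp6 (exact permutation p = 0.00212), below the difference of 1 needed for a call, and 1.24 for Dpp10 (exact permutation p = 8.23e-04). The remaining settings kept the direction and the side of the p threshold for both differences and the contrast. Values of 2 to 11 split reads, as for most Dpp6 libraries, carry a large counting error.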

Other observations

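Among the pore genes of other voltage-gated potassium channels, 19 of 37 were analysed, and 2 were called higher in ALS, beside 1.33% of all genes. With a one-sided p, 3 were called (Kcnb2, Kcnh7 and Kcnq5), beside 2.27% of all genes. The median difference of the 19 was 1.20, against 1.19 over all genes, and their median length was 69.7 kb, against 49.3 kb. Both genes called with the two-sided p, Kcnq5 and Kcnh7, are longer than these medians. Kcnq5, which encodes a subunit of the M-current channel and spans 564 kb on chromosome 1, was found in 7 ALS libraries and 1 control. Its log2 values were 7.94 in ALS 2, 10.55 in ALS 4, 14.98 in ALS 5, 6.00 in ALS 6, 10.81 in ALS 7, 5.33 in ALS 8 and 7.84 in ALS 9, and 4.62 in control 10. ALS 1 and ALS 3 were at 0 for Kcnq5, while Dpp10 had 85 and 354 split reads there. The Kcnq5 difference was 6.59 (exact permutation p = 0.00131, or 0.475 after Benjamini-Hochberg adjustment over all genes). Kcnh7, a pore gene of the ERG family (491 kb), had 4, 17, 20, 37 and 3 split reads in ALS 1, ALS 2, ALS 7, ALS 8 and ALS 9, and no control had any (0 of 10). All 5 of these libraries also held both Dpp6 and Dpp10. The Kcnh7 difference was 3.69, and its exact permutation p of 0.0108 (0.581 adjusted over all genes) lay on the other side of the threshold from that of the test in the methods.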
